A study of Canis lupus familiaris with 2 samples.

Results

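The transcripts of 10 genes of nerve cells, their axons and their glia were followed in the canine left superior fat pad, the piece of fat on the left atrium in which a cardiac ganglionated plexus is embedded. The genes were, with their Entrez gene numbers in the array annotation, SNAP25 (477158), CHGB (477165) and GAL (404001) of vesicles and granules, the neurofilament genes NEFL (477378) and NEFM (486111), the growth-associated genes GAP43 (478572), STMN2 (477918) and MAP1B (478092), and the glial genes S100B (491615) and MAL (403933). These genes were chosen by their log2 differences on the same arrays, so their directions and sizes describe the choice and were not tested. The 10 genes were read by 15 of the 1628 probe sets of the table, and they are 10 of its 823 named genes. A probe set is a group of short oligonucleotides that reads a transcript, and 8 of the 15 can hybridize to several. No probe set naming several genes included any of the 10 genes.

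The comparison was between 2 Affymetrix canine expression arrays. The lenti-control array held RNA of mongrel dogs whose fat pad was injected with a lentivirus carrying a scramble sequence, and the lenti-miR-206 array held RNA of mongrel dogs whose fat pad was injected with a lentivirus overexpressing the microRNA miR-206. Each pool held RNA of 3 dogs. The tissue was collected 2 weeks after infection, a time that the labels give for the lenti-miR-206 pool and the methods for both. The labels name no atrial tachypacing for either pool, and dogs of either sex were used. With 1 array in each group the values have no replicate error, and neither a test nor a p-value could be had. In pooled tissue, fewer nerve cells and less RNA per nerve cell cannot be told apart. The values are log2 intensities from RMA, and no probe set in the table differed by less than 2-fold between the arrays, so the table is a selection. The labelled fat pad also held heart muscle. Of 20 heart muscle genes fixed as markers, 15 were in the table and all 15 were higher on the lenti-miR-206 array. Relative to the GAPDH controls, 2 of these 15 turned lower. Of 15 fat cell genes, 10 were in the table and all 10 were lower. Among these 10, LEP stood at only -0.048 relative to the median of the bacterial spike-in controls, within the range of those controls. Among all named genes of the table, 74.2% were higher and 25.8% lower. The part of these shifts in the nerve gene results was not tested.

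Ganglia of the heart are clusters of autonomic nerve cell bodies wrapped by satellite glia, and their axons run in bundles ensheathed by Schwann cells. Nerve cells release transmitter from synaptic vesicles and peptides from dense-core granules. Neurofilaments and microtubules fill and stabilise the axon, and growth-associated proteins are abundant while an axon extends or regrows.

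In the table, 9 of the 10 genes were lower on the lenti-miR-206 array and MAP1B was higher, turning slightly lower relative to the GAPDH control probe sets. With each gene read by its probe set of the highest mean, the median log2 difference, the value on the lenti-miR-206 array less that on the lenti-control array, was -2.32, against 1.17 over all named genes. Lower values made up 25.8% and higher values 74.2% of the named genes. By probe set, 13 of 15 were lower and 2 were higher, beside 24.9% lower and 75.1% higher among all probe sets. Of the 15, 9 were at least 4-fold lower, beside 4.55% of all probe sets. The choice of the genes fixes these counts, so nothing is read from the contrast with the table. At the 4-fold line GAL lay just inside with a log2 difference of -2.08 and NEFM just outside with -1.99.

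**Figure D1:**
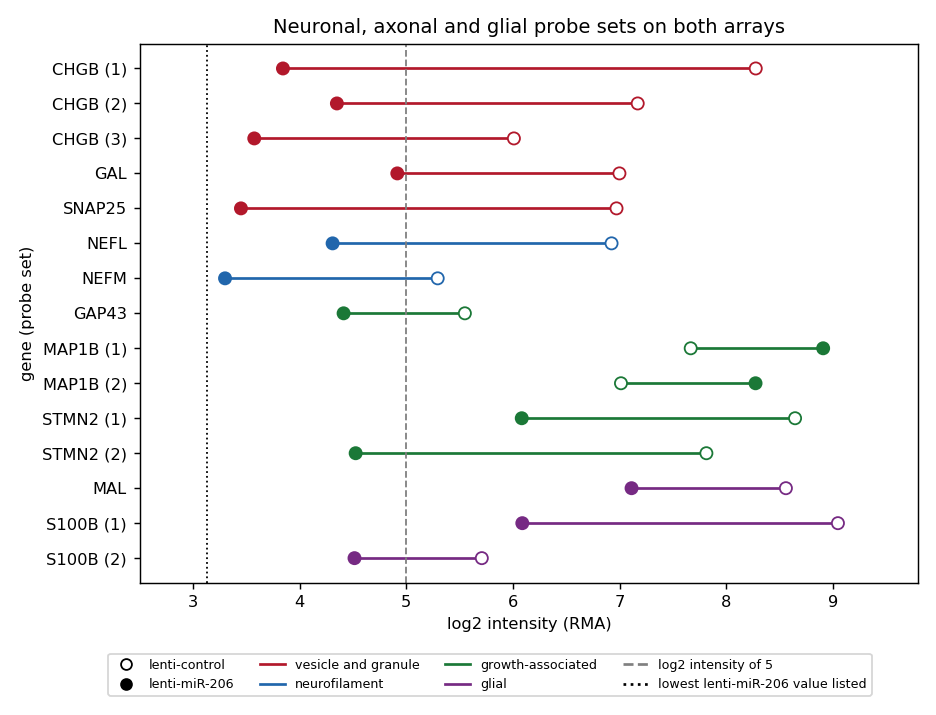
Log2 intensity (x axis) of the 15 probe sets of the 10 genes (y axis, numbered within a gene by falling mean) on the lenti-control array (open circles) and the lenti-miR-206 array (filled circles), coloured by the role of the gene. On the lenti-miR-206 array 10 probe sets lie left of the dashed line at 5, and only the MAP1B probe sets have the filled circle to the right of the open one.

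The vesicle and granule genes had the lowest median of the 4 roles as deposited, -3.52, although with values below 5 set to 5 the glial median of -2.20 lay below theirs of -1.997. CHGB encodes secretogranin-1, also called chromogranin B, an acidic protein that packs the cargo of dense-core granules. Its first probe set, counting by falling mean over both arrays here and for the other genes, read a log2 intensity of 8.27 for lenti-control and 3.84 for lenti-miR-206. The difference of -4.43, or 21.6-fold, left 4.63% of the lenti-control level and was the second lowest among the 1628 probe sets. The second read 7.17 and 4.35, a log2 difference of -2.82, and the third read 6.01 and 3.57, a log2 difference of -2.43. All 3 CHGB probe sets were thus lower, but their differences spanned a log2 range of 1.998. The size of the CHGB decrease therefore rests on which probe set is read, from 5.40-fold to 21.6-fold.

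SNAP25 encodes a plasma membrane protein of the SNARE complex that fuses vesicles with the membrane. Its single probe set in the table read 6.97 for lenti-control and 3.45 for lenti-miR-206, a log2 difference of -3.52 that left 8.72% of the lenti-control level. This was the fifth lowest difference of all probe sets. GAL encodes the precursor of galanin, a neuropeptide that nerve cells are known to raise after axon injury. The probe set of GAL read 6.997 and 4.92, a log2 difference of -2.08 or 4.23-fold. All 5 probe sets of these 3 genes were lower, and all 5 had a lenti-miR-206 value below 5.

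NEFL and NEFM, the light and medium chains that assemble into neurofilaments and are neighbours with 0 protein-coding genes between them in the dog assembly UU_Cfam_GSD_1.0, were both lower. The NEFL probe set read 6.92 for lenti-control and 4.31 for lenti-miR-206, a log2 difference of -2.61 that left 16.3% of the lenti-control level. The NEFM probe set read 5.29 and 3.30, a log2 difference of -1.99. The lenti-miR-206 value of NEFM lay 0.17 above the lowest value listed for that array, 3.13. Both neurofilament values of the lenti-miR-206 array were below 5. The symbol NEFL rests on the platform annotation alone, since its gene identifier had no match in the gene table used to update names.

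The growth-associated genes split. STMN2 encodes stathmin-2, a protein of growth cones that binds tubulin. The first STMN2 probe set read 8.64 for lenti-control and 6.08 for lenti-miR-206, a log2 difference of -2.56 or 5.90-fold. The second STMN2 probe set read 7.81 and 4.52, a log2 difference of -3.29 or 9.76-fold. Both STMN2 probe sets were thus lower, and the first of them kept a lenti-miR-206 value above 5. GAP43 encodes neuromodulin, a membrane protein of growing axon endings. The probe set of GAP43 read 5.55 and 4.41, a log2 difference of -1.14 that was the smallest decrease by gene among the 9 lower genes, close to the limit of the table.

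MAP1B encodes a microtubule-associated protein that is abundant in extending axons. The first MAP1B probe set read 7.67 for lenti-control and 8.91 for lenti-miR-206, a log2 difference of 1.24 or 2.36-fold, and turned to -0.066 relative to the GAPDH controls. The second read 7.01 and 8.27, a log2 difference of 1.26, and turned to -0.046 relative to the GAPDH controls. The 2 probe sets differed by a log2 value of 0.020, the smallest gap among the 4 genes with more than 1 probe set. MAP1B was thus the single gene of the 10 that was higher as deposited, and both of its values on each array were above 5. The group median of -1.14 was the value of GAP43 and hides this split.

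The glial genes were lower. S100B encodes a calcium-binding protein of Schwann cells and satellite glia that fat cells also make. The first S100B probe set read 9.05 for lenti-control and 6.09 for lenti-miR-206, a log2 difference of -2.96 that left 12.9% of the lenti-control level. The second S100B probe set read 5.71 and 4.51, a log2 difference of -1.19 or 2.29-fold. The sizes from these probe sets lay a log2 value of 1.77 apart. MAL encodes a membrane protein of myelin that is also found in T cells and epithelia, and its probe set read 8.56 and 7.11, a log2 difference of -1.45 or 2.73-fold. MAL was the one lower gene whose every listed probe set was above 5 on both arrays. The median of the 2 glial genes was -2.20.

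**Figure D2:**
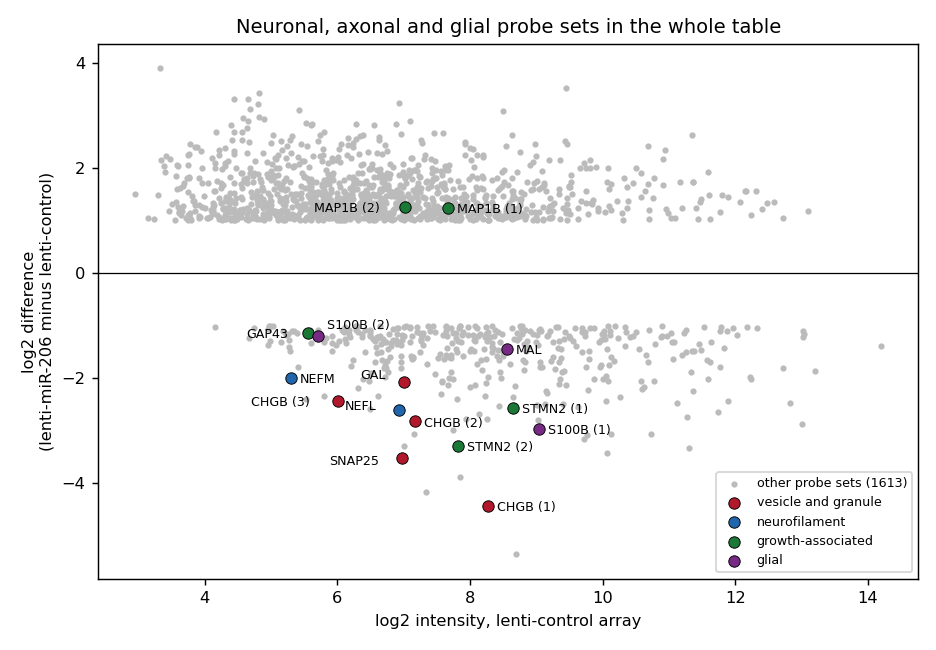
Log2 difference between the arrays (y axis, positive where lenti-miR-206 is higher) against the log2 intensity on the lenti-control array (x axis) for all 1628 probe sets, with the 15 nerve and glial probe sets coloured by role. The band between -1 and 1 is empty because of the selection in the table, CHGB (1) lies at -4.43 and the MAP1B probe sets lie at 1.24 and 1.26.

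The probe sets were divided by the brightness of their lenti-miR-206 values. With a lenti-miR-206 value below 5 there were 10 probe sets of 8 genes, from NEFM at 3.30 to GAL at 4.92, and all 10 were lower with a median log2 difference of -2.52. In the lenti-control pool the same 10 read between 5.29 and 8.27, all above 5, so the split itself fixed their direction. CHGB, SNAP25, GAL, NEFL, NEFM and GAP43 were read below 5 by every probe set they have in the table. At or above 5 there were 5 probe sets of 4 genes: STMN2 (-2.56), S100B (-2.96) and MAL (-1.45) were lower, and both MAP1B probe sets were higher. The dimmest of these 5 was the STMN2 probe set at 6.08. A lenti-miR-206 value below 5 was found for 76.9% of the lower nerve and glial probe sets, for 17.3% of all lower probe sets and for 5.77% of all probe sets. The genes were chosen by their differences, and a large decrease brings the lenti-miR-206 value down, so nothing is read from these shares. No detection call was used, so the dim values are not shown to be above background and the sizes of their differences are uncertain.

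A floor gives a smaller reading of these decreases. With every value below 5 set to 5, 10 of the 13 lower probe sets were still at least 2-fold lower. CHGB then had a log2 difference of -3.27 with its first probe set, SNAP25 -1.97, GAL -1.997 and NEFL -1.92. The 3 that came under 2-fold were NEFM with -0.29, GAP43 with -0.55 and the second S100B probe set with -0.71. STMN2 had -2.56 with its first probe set, as before, and -2.81 in place of -3.29 with its second. The order of the sizes among the dim genes thus depends on values that may be background, while STMN2, S100B and MAL each have a probe set that no floor at 5 touches.

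The controls of the arrays gave opposite references. The 13 bacterial spike-in control probe sets had a median log2 difference of -1.08, between -1.17 and -1.001, and the 5 GAPDH control probe sets had 1.31, between 1.16 and 1.43. They passed the same 2-fold selection, and neither can be taken as a fixed level. Relative to the spike-in median, all 13 lower probe sets kept their direction, beside 21.6% of all probe sets lower on that reference. Of these, 9 were still at least 2-fold lower, CHGB at -3.35, SNAP25 at -2.44 and S100B at -1.88 with their first or single probe set. GAP43 at -0.060, the second S100B probe set at -0.12 and MAL at -0.37 lay near 0 on that reference. Relative to the GAPDH median all 15 probe sets were lower, MAP1B included, beside 58.7% of all probe sets. The 10-gene median was -1.25 on the spike-in reference and -3.63 on the GAPDH reference. By role, in the order vesicle and granule, neurofilament, growth-associated and glial, the medians were -2.44, -1.23, -0.060 and -1.13 on the spike-in reference. On the GAPDH reference the medians in that order were -4.83, -3.61, -2.44 and -3.51. GAP43 (-1.14 as deposited) lay within the range of the spike-in controls and both MAP1B probe sets within that of the GAPDH controls, so the direction of either gene on that reference depends on the control probe set taken. The other 8 lower genes were lower than every spike-in control probe set.

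**Figure D3:**
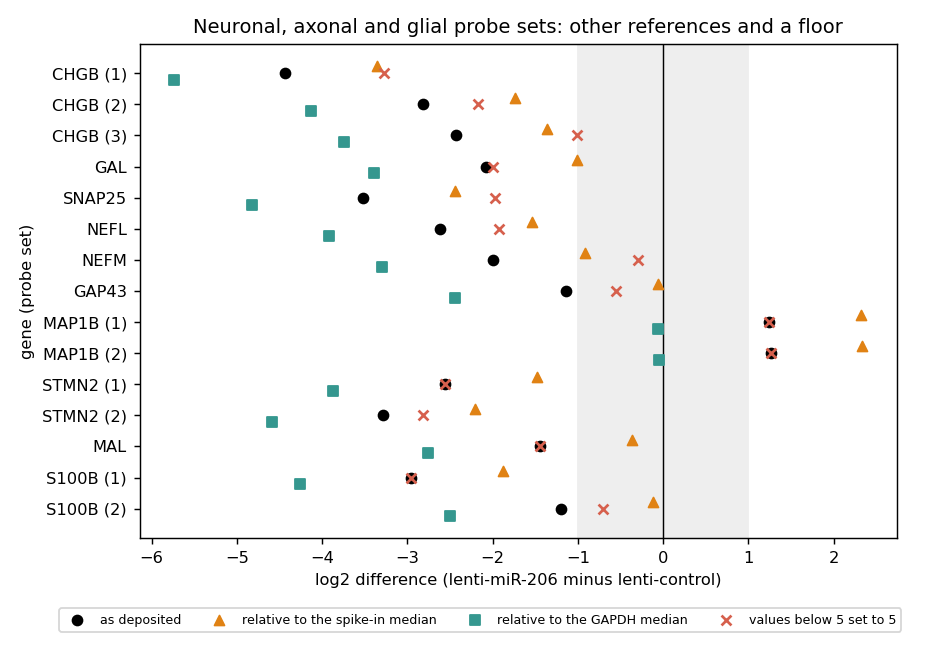
Log2 difference (x axis, positive where lenti-miR-206 is higher) of each of the 15 probe sets (y axis) as deposited (circles), relative to the spike-in median (triangles), relative to the GAPDH median (squares) and with values below 5 set to 5 (crosses), with differences under 2-fold shaded. The MAP1B squares at -0.066 and -0.046 are the only markers of a probe set on the other side of 0 from its circle.

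The wider nerve gene lists held few further genes in the table. Of 26 genes expressed by neurons in general, 7 were in the table, and 6 were lower, beside 25.8% of all named genes. All 7 are among the 10 genes chosen by these differences, so the count restates the choice. Of 27 genes of synaptic vesicles and secretory granules, CHGB, SNAP25 and PAM were in the table. PAM, the enzyme that amidates peptides and that atrial muscle also makes in quantity, was higher with all 5 of its probe sets, with log2 differences from 1.57 to 2.63, and stayed higher relative to GAPDH. Of 27 genes of the axon cytoskeleton and of growth, 6 were in the table. Besides NEFL, NEFM, STMN2, GAP43 and MAP1B this was ANK3, the ankyrin of the axon initial segment, with 4 probe sets from 1.01 to 1.67, of which the 2 with the smallest differences turned lower relative to GAPDH.

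Of 23 genes of glia and Schwann cells, 4 were in the table and 3 were lower, beside 25.8% of all named genes. S100B and MAL, 2 of the 3, were chosen by these differences. PMP22, a myelin protein also made outside nerves, read 9.49 and 8.29, a log2 difference of -1.19. CRYAB, a small heat shock protein of myelinating cells and of heart muscle, was higher by 1.94. Of 11 neuropeptide genes, GAL and the proenkephalin gene PENK were in the table. PENK read 4.96 and 3.95, a log2 difference of -1.02 that turned to 0.061 relative to the spike-in controls. Of 14 neurotrophic genes 1 was in the table, NTRK2, the receptor of BDNF, with -1.04 and -1.37 for its 2 probe sets, the first of which turned to 0.032 relative to the spike-in controls.

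The transmitter lists gave little. Of 11 sympathetic genes, HAND2, a transcription factor of sympathetic neurons and of the heart, was higher by 1.94, and MAOA, which degrades noradrenaline, had -1.02, turning to 0.059 relative to the spike-in controls. None of 8 parasympathetic and none of 13 neuronal channel genes were among the named genes of the table. It holds only differences of 2-fold or more, and 441 of its probe sets, controls included, carry no symbol and 22 carry several. Absence of a gene here therefore does not show that it was unchanged. UCHL1, TH and CHAT, the genes of the nerve markers stained in the study, belong to the neuron, sympathetic and parasympathetic lists. They were not among the named genes of the table either.

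The summed linear intensity of the 10 genes was 2278 for lenti-control and 860.3 for lenti-miR-206. For the vesicle and granule genes it was 562.9 and 55.5, for the neurofilament genes 161 and 29.7, for the growth-associated genes 649.8 and 569, and for the glial genes 905.1 and 206. The 10 fat cell genes in the table summed to 47934 and 13864, 0.289 of the lenti-control sum, with log2 differences from -2.87 (CIDEA) to -1.12 (LEP). The 15 heart muscle genes summed to 41920 and 116164, 2.77 times the lenti-control sum, with differences from 1.17 (MYH7) to 2.83 (NPPB). These 10 nerve and glial genes were chosen for their differences, and the sums of the wider nerve lists went both ways. The lenti-miR-206 sum was 0.501 of the lenti-control sum for neurons in general and 0.287 for neuropeptides. It was 2.71 times the lenti-control sum for synaptic vesicles and granules, 1.73 for the axon cytoskeleton and growth, 1.20 for glia and Schwann cells and 2.76 for sympathetic genes. PAM, CRYAB and HAND2 were the only higher genes of the vesicle, glia and sympathetic lists, against 2, 3 and 1 lower genes in that order. In the axon list ANK3 and MAP1B were higher and 4 genes were lower. PAM, CRYAB, HAND2 and ANK3 also had the highest lenti-miR-206 value of their list, and a linear sum weighs such a gene most. The higher sums of these lists therefore do not show that most of their genes were higher. Among the 10 genes, the growth-associated genes and the neuron list, MAP1B was the only higher gene. Its lenti-miR-206 value of 8.91 was the highest in each, so MAP1B weighs most in those lenti-miR-206 sums.

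**Figure D4:**
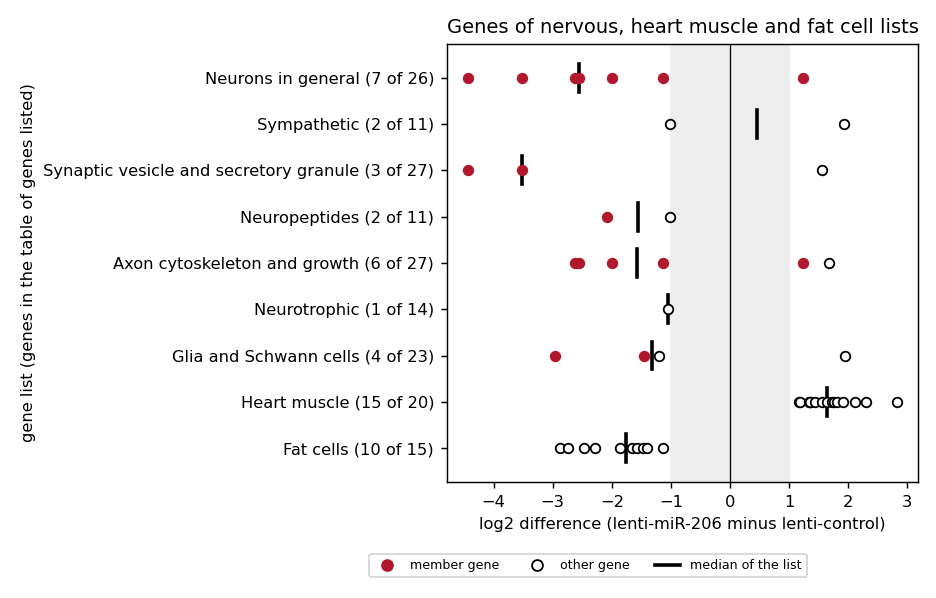
Log2 difference (x axis, positive where lenti-miR-206 is higher) of the genes of 9 lists (y axis, genes in the table of genes listed), each gene read by its probe set of the highest mean, with the 10 nerve and glial genes in red and list medians as black bars. All 10 fat cell genes lie left of the shaded band of differences under 2-fold, all 15 heart muscle genes lie right of it, and the lists of neurons, sympathetic, vesicle, axon and glia genes have genes on both sides.

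As a description of levels, the named gene nearest to each of the 3 genes with the highest means was found over both log2 values. MAP1B lay closest to DECR1, an enzyme of fatty acid oxidation, with 7.70 and 8.94 and a distance of 0.049. MAL lay closest to GLIPR2 (8.46 and 7.15, distance 0.11) and S100B to ACSS3, a mitochondrial acyl-CoA synthetase (9.02 and 6.23, distance 0.14). With only 2 arrays such a likeness rests on 2 values per gene.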

How the data were processed

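Affymetrix canine arrays, 1 for each group, were hybridized with pooled RNA of 3 dogs each. The authors deposited log2 intensities, for which the processing notes name RMA. Neither its version nor the set of arrays it was run on is given in the sources used here. Besides 19 controls the table holds 1628 probe sets. RMA compresses differences of dim probe sets. Arrays give no count, and the single array in each group limits the precision.

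The log2 difference of each probe set was computed in Python (3.11.15; numpy 2.4.6, pandas 2.3.3), and matplotlib 3.10.9 drew the plots. Only the subtraction step of the code was tested, on simulated data with planted differences. Symbols came from the platform annotation, updated through gene identifiers (1104 probe sets matched, 80 kept the annotated symbol). Of the 15 nerve and glial probe sets 8 carry the suffix s_at and can hybridize to several transcripts. Coordinates are left out, since the array files name no genome build, and the assembly UU_Cfam_GSD_1.0 served only for symbols and gene order. Genes with several probe sets are represented by that of the highest mean.

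The members, lists and alternatives were chosen with earlier results of these data known. Named are the 10 genes, list genes in the table (of the heart muscle and fat cell lists only the extremes) and the nearest gene of the 3 members with the highest means. No test, centring or renormalization was run. The alternatives were other probe set choices, dim probe sets left out, no s_at, x_at or a_at probe sets, 2 control references and a 3-fold limit. A floor at 5 was added after seeing the data.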

Additional observations from a re-analysis of the deposited data

How the results depend on the processing

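The 9 lower genes had differences below 0 wherever they could be computed, but GAP43, at -0.060 relative to the spike-in median, lay within the range of the spike-in controls, as MAP1B, at -0.066 relative to the GAPDH median, lay within that of the GAPDH controls. The 10-gene median of -2.32 became -2.08 with the mean of all probe sets, -2.004 with lenti-miR-206 values of at least 5 (4 genes), -2.56 with a higher value at or above the table median (5 genes), -2.08 without s_at, x_at and a_at probe sets (7 genes), -1.25 and -3.63 relative to spike-in and GAPDH controls, -2.61 at 3-fold and -1.95 with a floor at 5, a setting chosen after seeing the data. In that order of settings, the vesicle and granule median of -3.52 became -3.23, none, -4.43, -3.26, -2.44, -4.83, -3.52 and -1.997. The neurofilament median of -2.30 became -2.30, none, none, -1.99, -1.23, -3.61, -2.30 and -1.11. The growth-associated median of -1.14 became -1.14, -0.66, -0.66, -1.14, -0.060, -2.44, -2.56 and -0.55. The glial median of -2.20 became -1.76, -2.20, -2.20, -2.96, -1.13, -3.51, -2.96 and -2.20. Some of these medians are the value of 1 gene. CHGB alone gave the vesicle and granule -4.43, and NEFM alone gave the neurofilament -1.99. STMN2 alone gave the growth-associated -2.56, and S100B alone gave both glial values of -2.96. The 3-fold limit left 7 of the 10 genes and by its rule takes out the smaller differences. Leaving out dim probe sets left 3 or 4 lower member genes of 9, 1 or 2 lower neuronal genes of 6, 0 or 1 lower vesicle genes of 2 and 1 lower axon gene of 4. Without s_at, x_at and a_at probe sets, 1 vesicle gene and 1 glial gene of 3 were lower, and 1 axon and 0 glial genes were higher. At 3-fold, with each gene read by its probe set of the highest mean, 1 glial gene was lower and 0 neuronal, 0 vesicle and 1 axon gene were higher. PAM of the vesicle list came under this limit by that probe set alone, at 2.96-fold. Its other probe sets were 3.10-fold to 6.17-fold higher. Relative to GAPDH, 0 neuronal and 1 axon gene were higher. The cause of these changes was not tested. No paired analysis was possible because each group has 1 array.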

Other observations

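Other genes known from nerve cells were in the table in both directions; they were chosen after their values were seen and belong to no list above. CCK, the precursor of the peptide cholecystokinin, read 7.001 for lenti-control and 3.71 for lenti-miR-206, a log2 difference of -3.29, and -1.27 with its second probe set. ELAVL2, a neuronal RNA-binding protein, had -2.19, with a lenti-miR-206 value of 4.12. NELL2, a secreted protein of neurons, had -1.68 and -1.22, and NNAT, neuronatin, had -2.01, -1.69 and -1.44 with its 3 probe sets. RTN1, a reticulon of neuroendocrine cells, had -1.09, which was -0.017 relative to the spike-in median and within the range of those controls. SLC1A3, a glutamate transporter of glia, had -1.19, or -0.11 relative to that median. SNCG, gamma-synuclein, which fat cells also express, had -1.04 and turned to 0.035 relative to the spike-in controls.

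Higher were GNRH1, the precursor of gonadotropin-releasing hormone, with 2.55, CTNNA2, an alpha-catenin of the nervous system, with 2.46, and NMB, the precursor of neuromedin B, with 1.89. SYNGR1, a synaptic vesicle protein, had 1.20 and turned to -0.11 relative to the GAPDH controls. MAP1LC3A, a protein of the light chain 3 family that was first found bound to MAP1 proteins, had 1.43 and 1.37, beside 1.24 and 1.26 for MAP1B, and stayed 0.12 and 0.059 above the GAPDH controls.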
